A study of Rattus norvegicus with 48 samples.

Results

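Icam1, Vcam1, Cd14 and Cd68 were followed across rat liver slices as a small panel of leukocyte adhesion and macrophage marker genes. The 4 genes were chosen by name and Ensembl identifier (ENSRNOG00000020679, ENSRNOG00000014333, ENSRNOG00000017819 and ENSRNOG00000037563) among 32883 genes of the count table, and all 4 were among the 14775 genes with enough counts to be tested. The material was precision-cut liver slices, thin sections of living liver kept in culture, from rats with a ligated bile duct (BDL) or from sham-operated rats, and bulk RNA sequencing gave 48 libraries. In 3 groups slices of ligated liver received a compound: SB525334 (BDL_SB525334, 9 libraries), a compound labelled Nint (BDL_Nint, 10 libraries) or one labelled Sora (BDL_Sora, 10 libraries). Slices of ligated liver with vehicle (BDL_veh, 10 libraries) and slices of sham liver with vehicle (Sham_veh, 9 libraries) completed the set.

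SB525334 is an inhibitor of ALK5, the type I receptor kinase of TGF-beta. Nint and Sora are read here as the kinase inhibitors nintedanib and sorafenib, although the labels give only the short forms. In the deposited sample sheet 9 of 9 BDL_SB525334 libraries carry a different compound code, and the other 39 libraries carry the group names of the labels, so the identity of that compound rests on the labels. No compound was given to sham slices, every group was cultured as slices, and the labels state neither doses, culture times, ages nor how many rats gave the slices. The p-values below therefore measure the spread between libraries, which may be partly technical if slices came from the same rats.

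Leukocytes leave the blood by rolling along the vessel wall, arresting on adhesion molecules and crossing into the tissue. ICAM1 is the endothelial ligand of the beta-2 integrins LFA-1 and Mac-1, and VCAM1 is the ligand of the integrin VLA-4. In liver both can be carried by sinusoidal endothelium, and ICAM1 can also be induced on hepatocytes, while VCAM1 is also found on activated mesenchymal cells. CD14 is a co-receptor that hands bacterial lipopolysaccharide to TLR4 and is carried by monocytes and macrophages. CD68 is a lysosomal glycoprotein of macrophages, including Kupffer cells, the resident macrophages of the liver. Bile duct ligation is a standard model of cholestatic injury, bile duct proliferation and fibrosis.

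Transcription of ICAM1 and VCAM1 is a textbook example of control by NF-kappa-B, so the promoters of the adhesion pair are shown for reference. They are the 250 bases before the start site that the RefSeq promoter table uses (assembly GRCr8), written 5′ to 3′ on the strand of the gene, at chr8:27829595-27829844 on the plus strand for Icam1 and at chr2:206742784-206743033 on the minus strand for Vcam1. Capitals mark matches, on either strand, to the kappa-B core GGNNNTTCC and to TATAAA. For Vcam1, as for Cd68, that start site is the start of the gene record. For Icam1 it is position 27829845, while the RefSeq gene record starts at 27829688, so the last 157 bases of the Icam1 window lie inside the gene record. The window of Cd14, searched below but not printed, lies inside its gene record with all 250 bases.
Icam1: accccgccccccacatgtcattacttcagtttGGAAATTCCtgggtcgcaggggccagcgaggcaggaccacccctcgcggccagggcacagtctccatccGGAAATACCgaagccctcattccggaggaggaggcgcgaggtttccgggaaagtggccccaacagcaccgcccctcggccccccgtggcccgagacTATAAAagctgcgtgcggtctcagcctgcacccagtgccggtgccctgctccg
Vcam1: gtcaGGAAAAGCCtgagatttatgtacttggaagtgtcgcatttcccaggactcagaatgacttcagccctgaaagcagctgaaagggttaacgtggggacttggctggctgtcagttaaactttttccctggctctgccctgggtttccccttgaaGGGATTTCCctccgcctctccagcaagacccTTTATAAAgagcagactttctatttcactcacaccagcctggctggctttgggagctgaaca

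Icam1 held 2 matches to GGNNNTTCC, which began 218 and 149 bases before the start site of the promoter table, or 61 bases before and 8 bases after the start of the gene record, and Vcam1 held 2, which began 246 and 93 bases before it. The windows of Cd14 and Cd68 held 0, and 15.4% of 33469 windows of the same length held at least 1. The other distances are from the start sites of the promoter table. TATAAA was matched at 53 bases before that of Icam1 and, on both strands in overlapping positions, at 62 and 60 bases before that of Vcam1, against 12.9% of all windows. Of the other motifs searched, both strands included, TGANTCA (AP-1) had 2 matches in Cd68 and 0 in the other members (6.34% of windows), GAGGAA (an ETS core) had 2 in Cd14 and 1 in Cd68 (23.3%), and GGGCGG (Sp1) had 2 in Icam1 and 1 in Cd68 (30.5%). A match describes letters in the window and not a bound site, and kappa-B sites spelled otherwise than GGNNNTTCC would be missed in any window. The adhesion pair shares kappa-B core letters, and its levels, given next, moved in opposite directions in both main comparisons. NF-kappa-B activity was not measured, and a link between these letters and the levels was not tested.

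The libraries held 12249470 to 29596987 counts each, and levels are given as CPM, the counts relative to library size, with sizes scaled by TMM factors. Those factors differed between groups, from 0.7745 to 0.8994 in BDL_SB525334, from 1.028 to 1.148 in the other 3 ligated groups and from 0.8229 to 0.9072 in Sham_veh. Scaling by total counts alone shifted the median of all genes by 0.35 log2 units between BDL_veh and Sham_veh. Between BDL_SB525334 and BDL_veh the shift was -0.41. The sizes of differences between these groups therefore depend on the scaling, and for small ones the call can too. Quality also moved with the groups. The mitochondrial share of reads was 2.19% to 4.49% in BDL_SB525334, 1.33% to 1.86% in the other ligated groups and 2.02% to 2.46% in Sham_veh, and the non-uniquely mapped share was 9.85% to 20.85% in BDL_SB525334 against 8.01% to 12.66% elsewhere. Its part in the results was not tested beyond a fit with a quality component as a covariate. Among the members, libraries 1, 6 and 8 of BDL_SB525334 stood apart from their group in Icam1 only. Libraries 3 and 6 of BDL_veh did so in Cd68 only. The effect of leaving out these libraries is given below. In these bulk samples fewer cells of a type and less RNA per cell cannot be told apart. The identifiers in the files could not be paired with symbols beyond the 4 members, so the tissue was not checked against marker genes, and other adhesion or macrophage genes were not analysed here.

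**Figure D1:**
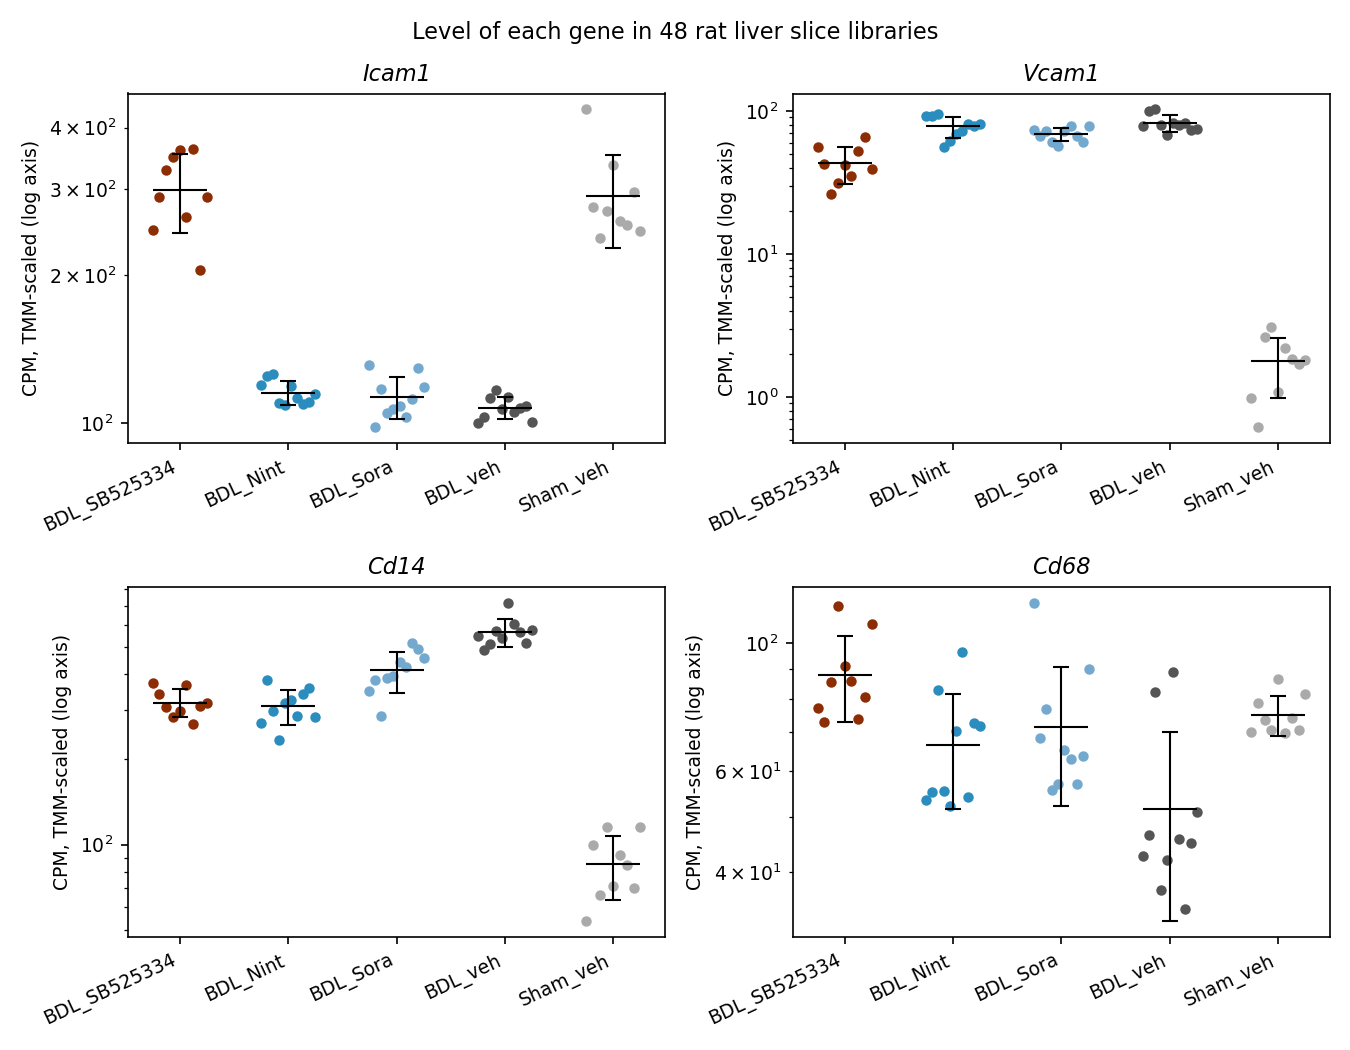
Level of each of the 4 genes in every library, as TMM-scaled CPM on a log axis, by group; points are libraries and the black bars are the mean and SD. Sham slices sit near 1.77 CPM for Vcam1 and far below all ligated groups, while for Icam1 the BDL_SB525334 and Sham_veh libraries both lie above 200 CPM and the other 3 groups lie below 132 CPM.

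Bile duct ligation split the panel. Against sham slices, Vcam1 and Cd14 rose strongly in vehicle-treated ligated slices, Icam1 fell 2.70-fold, and Cd68 fell 1.45-fold. All 4 genes passed the test (an adjusted p under 0.05 in edgeR's quasi-likelihood test, by Benjamini-Hochberg over all genes tested), where 82.2% of all genes did, 40% higher and 42.2% lower. Of the genes called, 48.7% were higher in BDL_veh, and 66.1% were with total counts. Passing was therefore the rule in this comparison, and the sizes and the separation of the libraries say more than the count.

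Vcam1 had the largest change of the panel. It lay between 68.2 and 102 CPM in BDL_veh (median 80.0), against 0.614 to 3.06 CPM in Sham_veh (median 1.81). Sham slices held 9 to 45 counts of it per library, 227 in all (95% Poisson interval 198 to 259, counting error only), so the gene was scarce but detected in every sham library. The groups did not overlap, as was so for 52.6% of all genes. The log2 fold change was 5.51 ± 0.181 (SE; adjusted p = 1.81e-30), a 45.6-fold higher level, and 319 of the 14775 genes (2.16%) rose by more.

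Cd14 ranged from 489 to 716 CPM in BDL_veh (median 556), against 53.8 to 116 CPM in Sham_veh (median 84.6). The highest sham library lay far below the lowest ligated one. Its log2 fold change was 2.72 ± 0.116 (SE; adjusted p = 3.29e-26), or 6.59-fold higher, and 12.7% of genes rose by more.

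Icam1 went the other way. It ranged from 100.1 to 117 CPM in BDL_veh (median 107), against 238 to 436 CPM in Sham_veh (median 271), again without overlap. On the log2 scale the fold change was -1.43 ± 0.0861 (SE; adjusted p = 2.15e-20), and 6.38% of genes fell by more. The log2 fold change ranged from -1.45 to -1.08 over the 14 alternatives listed at the end, the latter with total counts. The ligated libraries were tightly grouped, with a coefficient of variation of 5.09%, against 21.4% in sham libraries, where replicate 1 was the highest at 436 CPM.

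Cd68 differed least and least evenly. It ranged from 34.6 to 89.0 CPM in BDL_veh (median 45.3), against 69.8 to 86.6 CPM in Sham_veh (median 73.4), and the groups overlapped. The log2 fold change was -0.54 ± 0.146 (SE; adjusted p = 0.000809). BDL_veh libraries 3 and 6, at 82.3 and 89.0 CPM, were within or above the sham range, and the other 8 averaged 43.1 ± 5.18 CPM (SD), below every sham library. Without those 2 libraries the log2 fold change was -0.80 (adjusted p = 1.62e-07). They held the highest Cd68 values of BDL_veh, so leaving them out had to widen the difference, and that p-value adds no support. The same 2 libraries had lincRNA shares of 0.53% and 0.56%, against 0.6% to 0.7% in the other 8, and the part of that in the Cd68 values was not tested. The decrease did not pass with library sizes taken as total counts (-0.20, adjusted p = 0.188), with total counts less the 50 most abundant genes (-0.28, adjusted p = 0.0751) or with the quality component as a covariate (-0.30, adjusted p = 0.301).

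Cd14 changed by 2.72 on the log2 scale and Cd68 by -0.54, a decrease that did not pass under every processing. The ratio of Cd14 to Cd68 shifted by an amount that no scaling of libraries can change, most of it from Cd14. The log2 ratio averaged 3.51 ± 0.418 in BDL_veh and 0.15 ± 0.372 in Sham_veh (SD, n = 10 and 9). The lowest ligated library, at 2.64, lay above the highest sham library, at 0.71. The log2 ratio of Icam1 to Vcam1 averaged 0.40 ± 0.182 in BDL_veh and 7.48 ± 0.919 in Sham_veh, with no overlap. These ratios are descriptions, and since lengths were not used they compare groups and not the abundance of one gene with another.

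**Figure D2:**
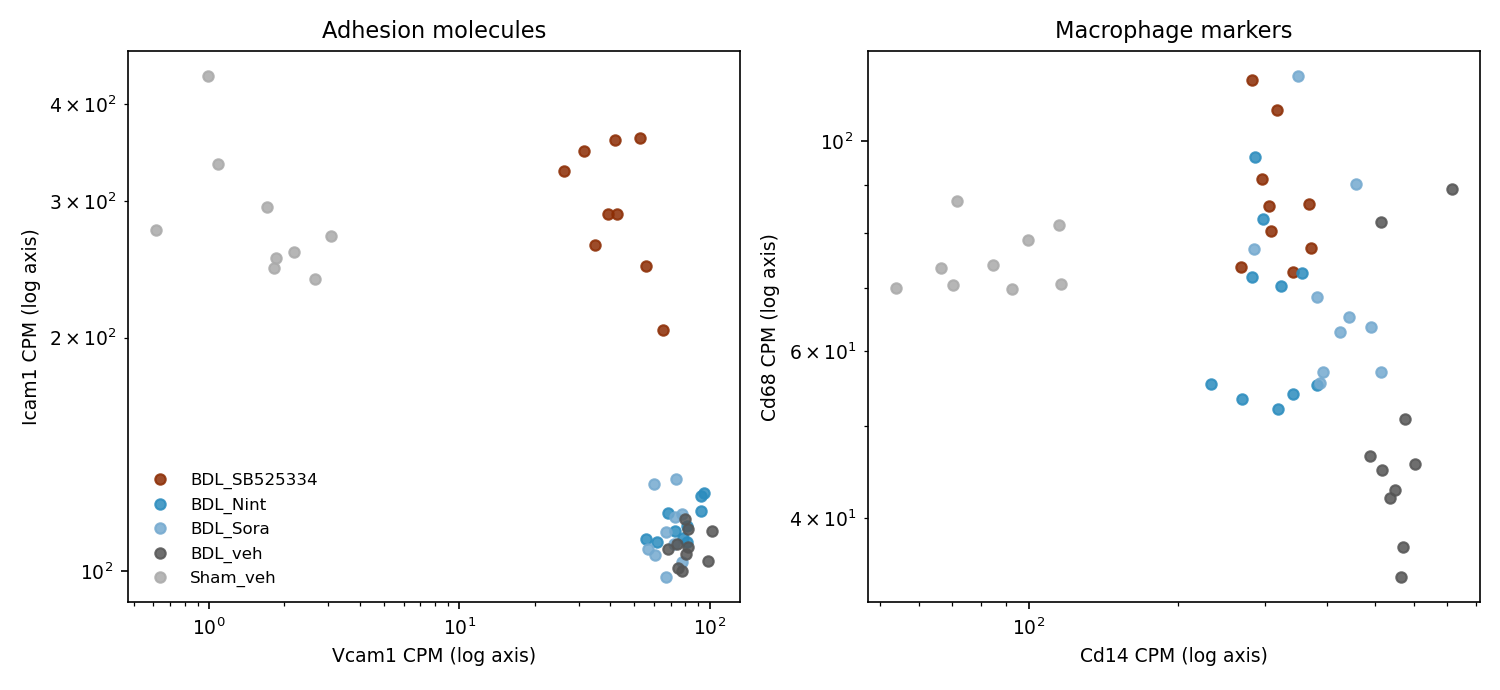
Adhesion pair (left, Icam1 against Vcam1) and macrophage pair (right, Cd68 against Cd14) in each library, CPM on log axes, colored by group. In the left panel BDL_SB525334 forms a cloud of its own, with Icam1 of 205 to 362 CPM, overlapping Sham_veh, and Vcam1 of 26.1 to 65.3 CPM, well above Sham_veh; in the right panel BDL_veh lies at the highest Cd14 levels.

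SB525334 moved all 4 genes away from their level in ligated vehicle slices, each in the direction of its sham level. Icam1 and Cd68 were higher and Vcam1 and Cd14 were lower in BDL_SB525334. All 4 passed the test, where 73% of all genes did, 38.2% higher and 34.8% lower in BDL_SB525334. Of the genes called, 52.3% were higher in BDL_SB525334, and 24.5% were with total counts. For comparison of the direction with ligation, both comparisons use the same BDL_veh libraries, so opposite signs are not independent evidence, and the comparison with sham slices is given below.

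Icam1 ranged from 205 to 362 CPM in BDL_SB525334 (median 289), against 100.1 to 117 CPM in BDL_veh (median 107). No library of either group reached the range of the other, which was so for 34.5% of all genes. Its log2 fold change was 1.48 ± 0.0862 (SE; adjusted p = 3.63e-20), a 2.78-fold higher level, and 4.37% of genes rose by more. The treated libraries were uneven: libraries 1, 6 and 8 had 205 to 263 CPM and the other 6 had 289 to 362 CPM. Leaving out libraries 1, 6 and 8, the lowest in Icam1, had to raise the log2 fold change, which was then 1.62. With all libraries and total counts it was 1.05.

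Vcam1 ranged from 26.1 to 65.3 CPM in BDL_SB525334 (median 42.0), against 68.2 to 102 CPM in BDL_veh (median 80.0). The highest treated library lay just under the lowest vehicle library. On the log2 scale the fold change was -0.92 ± 0.136 (SE; adjusted p = 6.17e-08), a 1.89-fold lower level, and 13.6% of genes fell by more. In libraries 1, 6 and 8 Vcam1 averaged 52.0 CPM and in the other 6 it averaged 39.0 CPM. Leaving out those 3 therefore had to deepen the decrease, and the log2 fold change was then -1.07. Over the 14 alternatives it ranged from -1.325, with total counts, to -0.64, and it passed in each.

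Cd14 ranged from 268 to 372 CPM in BDL_SB525334 (median 309), against 489 to 716 CPM in BDL_veh (median 556), without overlap. The log2 fold change was -0.83 ± 0.108 (SE; adjusted p = 3.54e-09), a 1.77-fold lower level. It was -0.90 without libraries 1, 6 and 8, which averaged 350 CPM, against 302 CPM in the other 6. Leaving them out therefore had to deepen the decrease. Over the 14 alternatives the Cd14 value ranged from -1.235, with total counts, to -0.67, and it passed in each. Vcam1 and Cd14 fell by similar amounts, and the log2 ratio of Vcam1 to Cd14 averaged -2.92 ± 0.439 in BDL_SB525334 and -2.78 ± 0.266 in BDL_veh (SD, n = 9 and 10).

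Cd68 ranged from 72.8 to 116 CPM in BDL_SB525334 (median 85.5), against 34.6 to 89.0 CPM in BDL_veh (median 45.3). The groups overlapped only through BDL_veh libraries 3 and 6, the highest of their group in Cd68, so leaving those out had to widen the difference. Its log2 fold change was 0.77 ± 0.146 (SE; adjusted p = 8.8e-06), and 1.03 without those 2 libraries. Without BDL_SB525334 libraries 1, 6 and 8 it was 0.82. With total counts it was 0.35 (adjusted p = 0.0205), and with the quality component it was 0.54 and did not pass (adjusted p = 0.0722). Because Cd14 fell while Cd68 rose, the log2 ratio of Cd14 to Cd68 averaged 1.86 ± 0.320 in BDL_SB525334, against 3.51 ± 0.418 in BDL_veh, without overlap.

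BDL_veh libraries 3 and 6 weighed less on the other members. Without them the log2 fold changes of BDL_veh over Sham_veh were -1.45 for Icam1, 5.46 for Vcam1 and 2.69 for Cd14. Those of BDL_SB525334 over BDL_veh were 1.496 for Icam1, -0.87 for Vcam1 and -0.79 for Cd14.

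Set against sham slices, the SB525334 slices overlapped with them for Icam1 and stayed far above them for Vcam1 and Cd14. Here 81.2% of all genes passed, 42.9% higher and 38.4% lower, and 2 of the 4 members did. Icam1 averaged 299.0 ± 54.7 CPM in BDL_SB525334 and 289.8 ± 62.0 CPM in Sham_veh (SD, n = 9 each), with a log2 fold change of 0.05 (95% interval -0.13 to 0.22; adjusted p = 0.637). That interval bounds the difference but does not show equality. The difference was -0.02 with total counts (adjusted p = 0.767). It was 0.19 without BDL_SB525334 libraries 1, 6 and 8 (adjusted p = 0.0363), which held the lowest Icam1 values, so leaving them out had to raise it.

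Vcam1 averaged 43.3 ± 12.5 CPM in BDL_SB525334 and 1.77 ± 0.794 CPM in Sham_veh (SD, n = 9 each), still 24.1-fold higher (log2 fold change 4.59 ± 0.180, SE; adjusted p = 3.07e-27). Cd14 averaged 318 ± 36.2 CPM in BDL_SB525334 and 85.5 ± 21.9 CPM in Sham_veh, 3.72-fold higher (log2 fold change 1.89 ± 0.114, SE; adjusted p = 2.95e-20). Neither gene overlapped between the groups, against 41.5% of all genes. Cd68 averaged 87.8 ± 15.0 CPM in BDL_SB525334 and 75.0 ± 5.98 CPM in Sham_veh and did not pass (log2 fold change 0.23, 95% interval -0.07 to 0.53; adjusted p = 0.158). Without BDL_SB525334 libraries 1, 6 and 8 the log2 fold changes were 4.44 for Vcam1, 1.82 for Cd14 and 0.28 for Cd68.

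**Figure D3:**
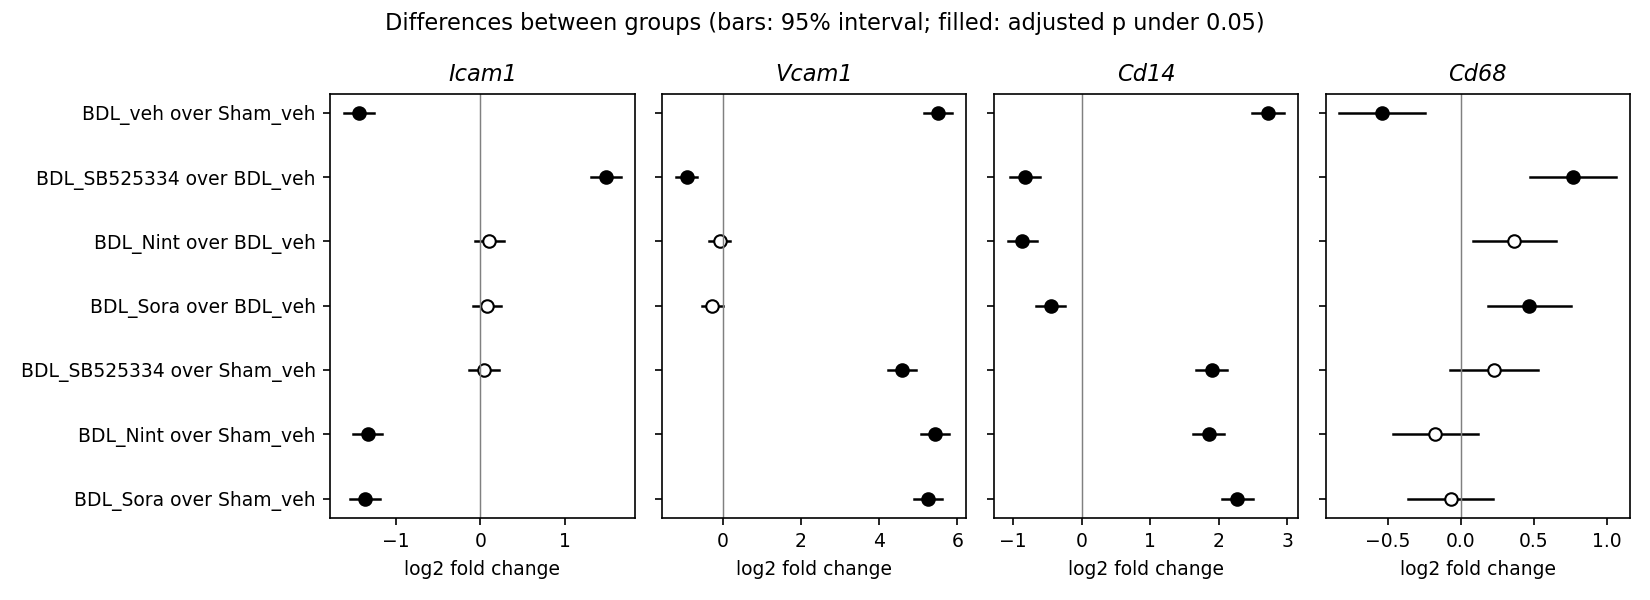
Log2 fold change of each gene with its 95% interval in 7 comparisons, one panel per gene with its own horizontal axis; filled circles passed at an adjusted p under 0.05 and open ones did not. Against BDL_veh, Icam1 differed with SB525334 (1.48) and sits near 0 with Nint (0.10) and Sora (0.07), while Cd14 is below 0 for all 3 compounds. Against Sham_veh, Cd14 is above 0 for all 3.

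Nint left the adhesion pair near its vehicle level and lowered Cd14. Only Cd14 passed among the 4 members, where 24.3% of all genes did, 13.3% higher and 10.9% lower in BDL_Nint. Cd14 ranged from 234 to 383 CPM in BDL_Nint (median 307), against 489 to 716 CPM in BDL_veh (median 556). The groups did not overlap, which was so for 7.71% of all genes. On the log2 scale the fold change was -0.87 ± 0.105 (SE; adjusted p = 8.78e-09), a 1.82-fold lower level, and 445 genes (3.01%) fell by more.

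Icam1 ranged from 109 to 126 CPM in BDL_Nint (median 113), against 100.1 to 117 CPM in BDL_veh. The log2 fold change was 0.10 (95% interval -0.06 to 0.27; adjusted p = 0.408), which excludes a change of the size seen with SB525334. A fit of these groups alone gave the same 0.10 and passed (adjusted p = 0.0207). Vcam1 ranged from 55.8 to 95.04 CPM in BDL_Nint (median 79.6), against 68.2 to 102 CPM in BDL_veh, with a log2 fold change of -0.08 (95% interval -0.34 to 0.18; adjusted p = 0.741). The values of both genes ran through each other in the 2 groups. Without BDL_veh libraries 3 and 6 the log2 fold changes were 0.12 for Icam1, -0.03 for Vcam1 and -0.83 for Cd14.

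Cd68 ranged from 52.1 to 96.3 CPM in BDL_Nint (median 62.9), against 34.6 to 89.0 CPM in BDL_veh (median 45.3). Its log2 fold change was 0.37 ± 0.142 (SE) and did not pass (adjusted p = 0.0545). Without BDL_veh libraries 3 and 6 it was 0.62 (adjusted p = 9.91e-05). Those libraries held the highest Cd68 values of BDL_veh, so leaving them out had to raise it, and that p-value adds no support. The call turned on single libraries: without BDL_veh library 3 the change was 0.46 (adjusted p = 0.00938), without BDL_veh library 6 it was 0.49 (adjusted p = 0.00532), and without any 1 of BDL_Nint libraries 1, 2, 4, 5 and 8 it was 0.39 to 0.40, with an adjusted p of 0.0389 to 0.0451.

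Sora lowered Cd14 by a smaller step than Nint and raised Cd68. Cd14 and Cd68 passed, where 29.3% of all genes did, 16.3% higher and 13% lower in BDL_Sora. Of the genes called, 55.7% were higher in BDL_Sora, with 44.8% under RLE factors and 38.1% under total counts. Cd14 ranged from 285 to 515 CPM in BDL_Sora (median 409), against 489 to 716 CPM in BDL_veh (median 556). The ranges overlapped at their edge, whereas 7.7% of all genes had ranges that did not. On the log2 scale the fold change was -0.45 ± 0.104 (SE; adjusted p = 0.000764), a 1.36-fold lower level.

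Cd68 ranged from 55.6 to 117 CPM in BDL_Sora (median 64.5), against 34.6 to 89.0 CPM in BDL_veh (median 45.3). Every treated library lay above the 8 vehicle libraries other than 3 and 6, the highest of BDL_veh. Leaving those out had to raise the difference. The log2 fold change was 0.47 ± 0.142 (SE; adjusted p = 0.0098), and 0.73 without BDL_veh libraries 3 and 6. Icam1 was near its vehicle level, at 98.1 to 132 CPM in BDL_Sora (median 110.3), against 100.1 to 117 CPM in BDL_veh, with a log2 fold change of 0.07 (95% interval -0.09 to 0.24; adjusted p = 0.559). Vcam1 ranged from 56.8 to 77.9 CPM in BDL_Sora (median 69.6), against 68.2 to 102 CPM in BDL_veh (median 80.0), and did not pass (log2 fold change -0.26, 95% interval -0.52 to 0.00; adjusted p = 0.131). It passed in a fit of these groups alone (-0.26, adjusted p = 0.00648) and with limma-voom and sample weights (-0.26, adjusted p = 0.00552). Without BDL_veh libraries 3 and 6 the log2 fold changes were 0.09 for Icam1, -0.21 for Vcam1 and -0.41 for Cd14.

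Neither compound brought Vcam1, Cd14 or Icam1 to the sham range. Against sham slices 3 of the 4 members passed with each compound, where 80.9% of all genes passed for BDL_Nint (40% higher, 40.9% lower) and 80.4% for BDL_Sora (40.1% higher, 40.3% lower). Among called genes the share higher than in Sham_veh was 49.5% for BDL_Nint and 49.9% for BDL_Sora, and with total counts it was 66.4% for BDL_Nint and 65.9% for BDL_Sora. Vcam1 was 43.2-fold higher in BDL_Nint and 38.1-fold higher in BDL_Sora than in Sham_veh. Cd14 was 3.62-fold higher in BDL_Nint and 4.83-fold higher in BDL_Sora than in Sham_veh. Icam1 had a log2 fold change of -1.33 in BDL_Nint and of -1.36 in BDL_Sora, both relative to Sham_veh. In all 6 of these the libraries did not overlap with sham libraries, against 50.3% of all genes for BDL_Nint and 48.6% for BDL_Sora. Cd68 did not pass in either, with log2 fold changes of -0.18 (adjusted p = 0.264) and -0.07 (adjusted p = 0.653).

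The compounds were also set against each other, in 3 pairs. Doses and times are not in the labels, so these differences belong to the slices as treated and not to the compounds at equal dose. Between BDL_SB525334 and BDL_Nint 72.7% of all genes passed, 36.4% higher and 36.3% lower in BDL_SB525334, and 3 of the 4 members did; higher genes were 50.1% of those called, and 23.9% with total counts. Between BDL_SB525334 and BDL_Sora 72.4% passed, 36.1% higher and 36.3% lower in BDL_SB525334, and 3 of the 4 members did; higher genes were 49.8% of those called, and 25.5% with total counts. Between BDL_Nint and BDL_Sora 2.32% passed, 1.37% of genes being higher and 0.948% lower in BDL_Nint, and 0.393% did not overlap. Genes higher in BDL_Nint were 59.2% of those called, and 78.4% with total counts.

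Icam1 separated SB525334 from both other compounds. Its log2 fold change was 1.37 ± 0.0861 against BDL_Nint (SE; adjusted p = 5.9e-19) and 1.40 ± 0.0861 against BDL_Sora (SE; adjusted p = 3.23e-19), with no overlap in either, against 32.4% and 31.3% of all genes. Between BDL_Nint and BDL_Sora it was 0.03 (95% interval -0.14 to 0.20; adjusted p = 0.907). Vcam1 was lower in BDL_SB525334 than in BDL_Nint (-0.84 ± 0.136, SE; adjusted p = 3.9e-07) and than in BDL_Sora (-0.66 ± 0.135, SE; adjusted p = 2.89e-05). With total counts the difference from BDL_Sora was -1.01, and with the quality component it was -0.43 and did not pass (adjusted p = 0.0883). Between BDL_Nint and BDL_Sora, Vcam1 differed by 0.18 (95% interval -0.08 to 0.44; adjusted p = 0.528).

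For Cd14 the order differed. Cd14 averaged 318 ± 36.2 CPM in BDL_SB525334 and 309 ± 44.5 CPM in BDL_Nint (SD, n = 9 and 10), with a log2 fold change of 0.04 (95% interval -0.18 to 0.26; adjusted p = 0.745). The sign of that small difference turned under several scalings, and with total counts it was -0.34 (adjusted p = 0.00621). Cd14 was lower in BDL_SB525334 than in BDL_Sora (-0.38 ± 0.107, SE; adjusted p = 0.00172), where the difference was -0.73 with total counts and did not pass with the quality component (-0.25, adjusted p = 0.215). It was lower in BDL_Nint than in BDL_Sora (-0.42 ± 0.104, SE; adjusted p = 0.021), the only member that passed between those groups, and its ranges overlapped. Without BDL_Sora library 8, the highest of its group at 515 CPM, that difference was -0.38 and the adjusted p was 0.0509.

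Cd68 was higher in BDL_SB525334 than in BDL_Nint (0.40 ± 0.146, SE; adjusted p = 0.0124). This call was lost with total counts (0.01, adjusted p = 0.933), with total counts less the 50 most abundant genes (0.11, adjusted p = 0.479) and with the quality component (0.20, adjusted p = 0.501). Against BDL_Sora the difference was 0.30 (95% interval 0.01 to 0.59; adjusted p = 0.0619). It passed without any 1 of BDL_SB525334 libraries 2 and 7 and BDL_Sora libraries 1 and 10, at 0.33 to 0.39 with an adjusted p of 0.0105 to 0.0487, and it was -0.06 with total counts (adjusted p = 0.721). Between BDL_Nint and BDL_Sora Cd68 had a log2 fold change of -0.10 (95% interval -0.39 to 0.18; adjusted p = 0.779).

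Leaving out BDL_SB525334 libraries 1, 6 and 8 gave log2 fold changes over BDL_Nint of 1.52 for Icam1, -0.99 for Vcam1, -0.03 for Cd14 and 0.46 for Cd68. Over BDL_Sora they were 1.55 for Icam1, -0.81 for Vcam1, -0.45 for Cd14 and 0.36 for Cd68. Among these the sign of the Cd14 difference from BDL_Nint turned, and no call changed. The 3 libraries averaged lower than the other 6 in Icam1 and Cd68, and higher in Vcam1 and Cd14. The direction of each shift, here and in the comparisons above, followed from that.

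Ordered by mean level, Icam1 ran from BDL_SB525334 and Sham_veh at the top to BDL_Nint, BDL_Sora and BDL_veh at the bottom. The neighbours within the upper pair and within the lower 3 groups did not differ beyond their spread by the test. Vcam1 ran from BDL_veh, BDL_Nint and BDL_Sora, none of which differed by the test, through BDL_SB525334 to Sham_veh. Cd14 ran from BDL_veh through BDL_Sora to BDL_SB525334 and BDL_Nint, which did not differ by the test, and then to Sham_veh. Cd68 ran from BDL_SB525334 through Sham_veh, BDL_Sora and BDL_Nint to BDL_veh, and no neighbours in that order differed by the test.

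The groups accounted for most of the spread of 3 members. The share of the variance of log2 CPM that lay between the 5 groups was 97.1% for Vcam1, 94.2% for Cd14 and 93.4% for Icam1, and 45.2% for Cd68, against a median of 76.4% over all genes. A larger share than that of Vcam1 was found in 1.92% of genes, and a larger one than that of Cd68 in 83.8%.

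Within groups the members were not shown to vary together. Of 30 relations tested, each between a pair of members in 1 group, 1 had a raw p under 0.05 for Pearson's r and 0 did after adjustment. That relation was between Icam1 and Vcam1 in BDL_Nint, with r = 0.696 (permutation p = 0.0273, adjusted p = 0.458) and rho = 0.758 (permutation p = 0.0151, adjusted p = 0.227) over 10 libraries. The value of r was 0.462 without the 2 libraries farthest from the Icam1 median. In BDL_SB525334, Icam1 and Cd14 had r = -0.619 (exact permutation p = 0.0763, adjusted p = 0.458) and rho = -0.8 (exact permutation p = 0.0138, adjusted p = 0.227). Without the 2 libraries farthest from the Icam1 median r was -0.949, a value that was not tested. The 3 uneven libraries of that group held the lowest Icam1 values.

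Across all 48 libraries, which share the same groups, the genes with levels most like those of each member were listed as a description. For Vcam1 the closest was ENSRNOG00000054695 (r = 0.985), which rose with ligation by 4.10 on the log2 scale, and for Cd14 it was ENSRNOG00000013994 (r = 0.968), which rose by 2.35. For Icam1 the closest was ENSRNOG00000054514 (r = 0.976), with a log2 fold change of -0.68 with ligation, and for Cd68 it was ENSRNOG00000014294 (r = 0.806), with -0.45. Correlations above 0.9 were held by 1174 genes with Vcam1, 471 with Icam1 and 416 with Cd14, and by 0 with Cd68. Vcam1 and Cd14 had r = 0.921 with each other, and Icam1 and Vcam1 had r = -0.701. No source used here names the genes behind these identifiers.

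**Figure D4:**
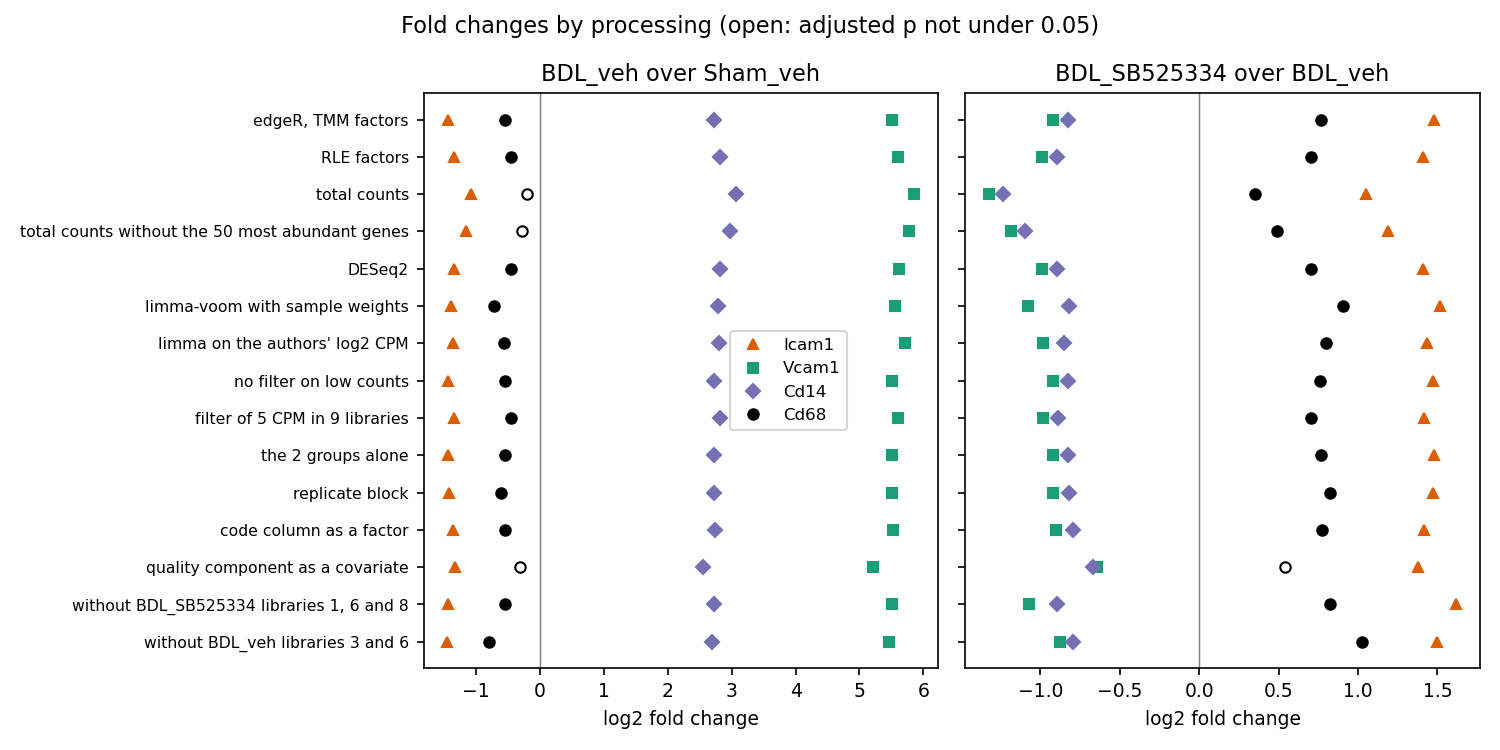
Log2 fold changes of the 4 genes for BDL_veh over Sham_veh (left) and BDL_SB525334 over BDL_veh (right) under each processing, one row per processing; filled symbols passed at an adjusted p under 0.05 and open ones did not. Icam1, Vcam1 and Cd14 stay filled in each row of both panels, and the open symbols are those of Cd68, 3 on the left (-0.20, -0.28 and -0.30) and 1 on the right (0.54).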

How the data were processed

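RNA of 48 slice libraries was sequenced. The deposited table holds expected counts per gene on Rnor_6.0, and RSEM and edgeR are named without versions, per the submitters' processing notes; no source used here gives the aligner or the annotation. Of the counts, 8.02% were not whole (tolerance 1e-06) and all were rounded. Log2 CPM values of 14418 genes were also deposited, as were quality metrics. The rates among them that are quoted here were fractions and were converted to percent. Strand settings of the counting are not given, although 98.73% to 99.22% of read pairs were antisense in the deposited metrics.

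Genes were filtered with filterByExpr by group, scaled with TMM factors and tested with edgeR 4.0.16 (glmQLFit, robust, and glmQLFTest, two-sided; R 4.3.3) on all 48 libraries, with p adjusted over 14775 genes in each of 10 comparisons. Standard errors come from the F statistic. Log2 CPM used a prior count of 2. Within-group relations used permutation tests written with NumPy 2.4.6, exact for groups of 9 and with 100000 draws for groups of 10. Ranks came from SciPy 1.17.1. In 207 within-group pairs of libraries chi-square divided by its degrees of freedom was at least 3.94, so none matched within sampling noise.

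Symbols of the members come from the rule that chose them: RefSeq (GRCr8, 47357 genes) pairs 0 genes with Ensembl identifiers, so the pathway and cell type lists drawn up for this work were not used. Promoters of all 4 members were matched by symbol. Named genes were the members and, at most 2 rising and 2 falling, the genes closest to each member in level. The members, lists, alternatives and libraries set apart were chosen with earlier results of these data known. Alternatives were RLE factors, total counts with and without the 50 most abundant genes, DESeq2 1.42.0, limma 3.58.1 (voom with sample weights, and on the authors' log2 CPM), no filter, 5 CPM in 9 libraries, the groups alone, a replicate block, the column of the library code, the first component of 151 quality metrics (35.7% of their variance), leaving out the libraries set apart, and leaving out each library.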

Additional observations from a re-analysis of the deposited data

Results flagged for a closer look

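In 20 groups of libraries, 1 for each gene and group, 2 held a library farther from its neighbours than Dixon's 95% limit, and chance flags about 1 group in 20. Icam1 in Sham_veh replicate 1 stood at 436 CPM with the next library at 335 CPM, a gap of 0.51 of the range of the 9 libraries, against a limit of 0.493. Cd14 in BDL_veh replicate 6 stood at 716 CPM with the next library at 604 CPM, a gap of 0.492 of the range of the 10 libraries, against a limit of 0.466. That library also had the highest Cd68 level of its group, at 89.0 CPM.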

How the results depend on the processing

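Over 40 results (4 genes in 10 comparisons), 26 kept their direction and side of the threshold under all 14 alternatives beside leaving out single libraries: 8 of 10 for each of Icam1, Vcam1 and Cd14, and 2 of 10 for Cd68. The cause of the changes below was not tested. Values are log2 fold changes with adjusted p.

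Total counts gave Icam1 -0.025 in BDL_SB525334 over Sham_veh, Cd14 -0.34 in BDL_SB525334 over BDL_Nint, and Cd68 -0.20 in BDL_veh over Sham_veh, -0.056 in BDL_SB525334 over BDL_Sora, 0.013 in BDL_SB525334 over BDL_Nint, 0.14 in BDL_Nint over Sham_veh and 0.21 in BDL_Sora over Sham_veh. Total counts also changed the balance of higher and lower calls over all genes, by more than 10 percentage points in 8 of 10 comparisons. Less the 50 most abundant genes the values were -0.24 for Cd14 in BDL_SB525334 over BDL_Nint, and for Cd68 -0.28 in BDL_veh over Sham_veh, 0.38 (p = 0.0445) in BDL_Nint over BDL_veh, 0.11 in BDL_SB525334 over BDL_Nint, 0.10 in BDL_Nint over Sham_veh and 0.19 in BDL_Sora over Sham_veh. Cd14 in BDL_SB525334 over BDL_Nint was -0.00067 with RLE factors and -0.00067 with DESeq2, -0.017 with the 5 CPM filter and -0.031 without BDL_SB525334 libraries 1, 6 and 8; the 5 CPM filter gave Cd68 0.015 in BDL_Sora over Sham_veh.

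The quality component gave Vcam1 -0.43 and Cd14 -0.25 in BDL_SB525334 over BDL_Sora, and Cd68 -0.30 in BDL_veh over Sham_veh, 0.54 in BDL_SB525334 over BDL_veh, 0.20 in BDL_SB525334 over BDL_Nint, 0.036 in BDL_Nint over Sham_veh and 0.12 in BDL_Sora over Sham_veh. Fits of the groups alone passed Icam1 in BDL_Nint over BDL_veh (0.10), Vcam1 in BDL_Sora over BDL_veh (-0.26), and Cd68 in BDL_SB525334 over BDL_Sora (0.30) and over Sham_veh (0.23, p = 0.0256). limma-voom passed Vcam1 in BDL_Sora over BDL_veh (-0.26) and Cd68 in BDL_Nint over BDL_veh (0.50) and in BDL_SB525334 over BDL_Sora (0.39); on the authors' log2 CPM these Cd68 values were 0.40 and 0.31. Without BDL_SB525334 libraries 1, 6 and 8 Icam1 passed over Sham_veh (0.19). Without BDL_veh libraries 3 and 6 Cd68 passed in BDL_Nint over BDL_veh (0.62) and in BDL_SB525334 over BDL_Sora (0.30). The libraries left out held the lowest Icam1 and the highest Cd68 values of their groups, so these calls add no support. BDL_veh is not in the comparison of BDL_SB525334 with BDL_Sora. There Cd68 stayed at 0.30 while its adjusted p in the edgeR test fell from 0.0619 to 0.0199. All groups share 1 estimate of the spread, which BDL_veh libraries 3 and 6 enter.

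Same-numbered libraries of different groups had a mean r of 0.0236 (93 pairs, 25 of them over 0.1). Libraries with different numbers had a mean r of -0.00173 (828 pairs, 188 of them over 0.1). The numbers follow the order of the library codes, so neither these values nor a replicate block can show whether groups shared rats. They were not taken as pairs. With a replicate block Cd68 passed in BDL_Nint over BDL_veh (0.38, p = 0.0391) and in BDL_SB525334 over BDL_Sora (0.33, p = 0.0365), and no other call of the 4 genes changed. Leaving out each library kept 37 of 40 results; the others ranged from -0.47 to -0.38 for Cd14 in BDL_Nint over BDL_Sora, from 0.29 to 0.49 for Cd68 in BDL_Nint over BDL_veh and from 0.24 to 0.39 for Cd68 in BDL_SB525334 over BDL_Sora.

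Counts of called genes moved by over 1.5 times in 3 comparisons. For BDL_Nint over BDL_veh 3587 genes became 6452 with limma-voom and 5789 with the groups alone, and for BDL_Sora over BDL_veh 4323 became 7581 with limma-voom. For BDL_Nint over BDL_Sora 343 became 598 with DESeq2, 3695 with limma-voom, 171 on the authors' log2 CPM, 1632 with the groups alone, 161 with the code column, 644 without BDL_SB525334 libraries 1, 6 and 8, and 166 to 567 without single libraries. Depth limits Vcam1 in sham slices, where 1 library held 9 counts.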
